A study of Danio rerio with 36 samples.

Results

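Hox cluster genes encode homeodomain transcription factors that set the identity of body segments along the head-to-tail axis. They lie side by side in clusters, and the order of the genes in a cluster follows the order of their expression along the axis. In vertebrates the clusters are rich in CpG dinucleotides, and in tissues where the genes are silent they are largely held by Polycomb repression while their CpGs stay mostly unmethylated. Dnmt1 is the maintenance methyltransferase that copies CpG methylation to the new DNA strand after replication.

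Members were sought as genes whose symbol in the authors' table of regions that differ in G2 sperm starts with hoxa, hoxb, hoxc or hoxd and a digit. Of 224130 rows, 1 named such a gene, *hoxb3a* (ENSDARG00000029263), against 49 protein-coding Hox cluster genes on 7 chromosomes in RefSeq. It was thus 1 of 20210 genes with a row within 5 kb. A search by gene identifier, with 48 Hox identifiers, found the same 1 row. The row lies on chromosome 3 from 23616806 to 23617587 (danRer10, 782 bases), at a distance of 0 from the gene, and holds 20 of the 23946533 listed CpGs. Whether it is exonic or intronic was not determined here. None of the 243 rows of the corresponding G4 table named a Hox gene.

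Whole genome bisulfite sequencing gave the methylation of CpGs in 18 zebrafish of mixed background, 3 in each of 6 groups. Whole bodies at 18 days post fertilization (dpf) came from wild-type *dnmt1*+/+ fish and from fish homozygous for the hypomorphic *dnmt1* allele (*dnmt1*m/m, labelled *dnmt1*-/-). Sperm came from *dnmt1*+/+ and *dnmt1*m/m males, which the study calls G2 and the labels Generation 1, and from genotypically wild-type G4 descendants of mutants that did not transmit (G4+) or did transmit (G4*) the impaired larval T cell development. A whole body mixes many cell types, so a level there is an average over them. Each fish had a value at 41.1% to 66.3% of the listed CpGs. Levels are percentages of methylated reads averaged over the CpGs that were measured in each of the 6 fish compared. Read depth was not in the tables, so no interval for counting error can be given.

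The *hoxb3a* interval was highly methylated in wild-type fish and lower in mutants of both tissues, and the G4 groups could not be separated. In the body, 8 of the 20 CpGs were measured in each of the 6 fish. The *dnmt1*+/+ bodies had levels of 87.4%, 78.7% and 85.7%. The *dnmt1*m/m bodies had levels of 54.9%, 69.6% and 60.5%, all below every wild-type body. The means were 83.9% ± 4.57 and 61.6% ± 7.41 (SD, n = 3), and mutants thus differed by -22.29 percentage points.

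The 8 CpGs were under the minimum of 10 CpGs set for the test of loci, so *hoxb3a* did not enter that test in the body. With a minimum of 5 CpGs, chosen after seeing the data, the limma adjusted p was 0.00187 and the locus was called lower (false discovery rate under 5% and at least 20 points). Calls of this kind were made for 94.9% of the 19515 loci then tested. Without *dnmt1*m/m body 1 the difference was -18.92 points, under the 20 points needed (limma adjusted p = 0.00655). With a value in at least 2 fish of each group all 20 CpGs entered, and the difference was -26.80 points (limma adjusted p = 0.000111). The median difference of the 17823 loci with 10 or more CpGs was -28.40 points, and 95.2% of them were called lower.

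In G2 sperm the interval was chosen by the authors for a difference between these males, so the values are a description. The *dnmt1*+/+ males had levels of 96.0%, 98.6% and 97.0% over 17 CpGs. The *dnmt1*m/m males had levels of 72.6%, 85.6% and 83.9%, and the groups did not overlap. They also did not overlap in 20267 of the 20305 gene loci, whose limits come from the same table. The median difference of those loci was -25.94 points, and that of *hoxb3a* was -16.52. The mean over all listed CpGs was 91.7% and 66.2% in the same groups.

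In G4 sperm 18 CpGs were measured in each male, and the interval was highly methylated in all 6. The G4+ males had levels of 98.5%, 99.0% and 98.5%. The G4* males had levels of 98.2%, 99.1% and 98.9%, so the groups overlapped. The difference of 0.06 points was not called (limma adjusted p = 1.00, exact permutation p = 0.9), and its sign changed when single males were left out. Over all gene loci, 0.0308% were called in either direction.

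**Figure D1:**
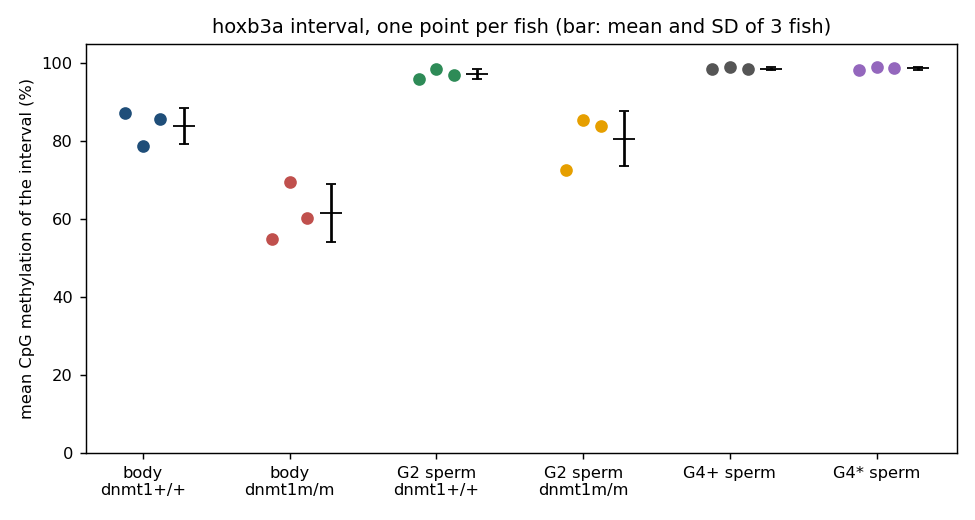
Mean CpG methylation of the *hoxb3a* interval in percent, with 1 point per fish and a bar for the mean and SD of 3 fish in each group. Mutant bodies lie between 54.9% and 69.6%, and all 6 G4 males lie above 98%.

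On the 7 CpGs measured in each of the 18 fish, wild-type bodies averaged 84.4% ± 5.48 and G2 wild-type sperm 98.3% ± 0.952 (SD, n = 3). The sperm level was 13.94 points higher, which limma with a minimum of 5 CpGs separated (adjusted p = 0.000547) but which was under the 20 points needed for a call. Tissue, age and table cannot be told apart in this comparison, and the sperm males also took part in setting the limits of the interval. Of loci tested in the same way, 1.85% were called higher in sperm. Without the size limit, 18877 of the 19769 loci passed the false discovery rate in limma, in either direction. The median difference of all these loci was 8.56 points.

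All 20 single CpGs of the interval had a lower group mean in mutant than in wild-type bodies, by 3.1 to 50.4 points. In G2 sperm, where the interval was chosen for a difference, 19 of the 20 were lower in mutants. The share of all CpGs that were lower is not given for either tissue. In mutant bodies 17800 of the 17823 gene loci passed the false discovery rate in limma as lower, with no minimum difference. With the minimum of 20 points 95.2% were called lower. In wild-type bodies the lowest CpG mean was 71.7% and the highest 95.8%, and in mutant bodies they were 34.0% and 89.7%. These means include CpGs without a value in every fish.

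The methylated block was short. From 2 to 1 kb before the interval the level in wild-type bodies was 91.6% (5 CpGs), and from 3 to 2 kb before it was 13.2% (7 CpGs). Behind the interval it was 29.5% in the first kb (7 CpGs) and 17.3% in the next (9 CpGs). G2 wild-type sperm had 1.8% from 3 to 2 kb before the interval and 1.0% from 1 to 2 kb behind it.

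**Figure D2:**
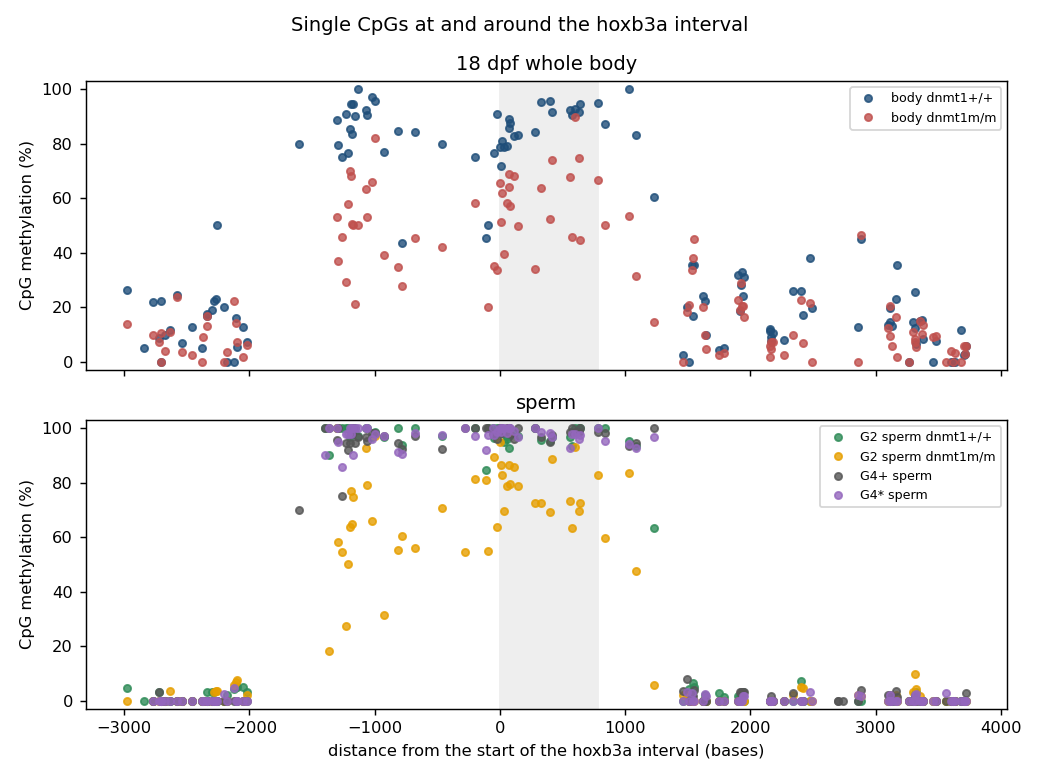
Group mean methylation (%) of each CpG against its distance in bases from the start of the *hoxb3a* interval (shaded). Within the interval the CpG means lie between 92.9% and 100% in G2 wild-type sperm, between 63.3% and 98.1% in G2 mutant sperm and between 71.7% and 95.8% in wild-type bodies.

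The interval thus lies as a methylated block in a long stretch that the G2 table leaves almost empty. It was not the only methylated part of that stretch. The 5 kb bin centred 15 kb behind its centre had 84.5% in wild-type bodies and 97.6% in G2 wild-type sperm. In mutants that bin had 46.6% in bodies and 62.5% in G2 sperm, though no row lies there. The row before it names *eve1*, an even-skipped-related homeobox gene, and the row after it names si:ch73-4e5.1. The gap before the interval is 104589 bases long and holds 2667 listed CpGs, and the gap behind it is 36024 bases long and holds 651. In RefSeq, whose gene order is that of another assembly (GRCz12tu), the hoxba cluster follows *eve1*, so how many Hox genes the stretch holds and where each lies is not given. Among 223601 gaps between rows, the gap before *hoxb3a* ranked first by its number of CpGs under 20% in G2 wild-type sperm (910 of 932 measured). It ranked second by measured CpGs and only 224 by length. The rows come from the same G2 males, and by the paper's counts nearly all are losses in mutants. CpGs already low in wild-type sperm can hardly lose more, so unmethylated stretches tend to be gaps by construction. The first rank is thus a description.

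Across the gap before *hoxb3a* the wild-type bodies had levels of 14.2%, 13.9% and 13.6% over 906 CpGs. The mutant bodies had 7.29%, 8.91% and 9.13%, all lower. The mean fell from 13.9% to 8.45%, which is 60.8% of the wild-type level. Over all listed CpGs the mutant body kept 65.8% (82.2% against 54.1%). The exact permutation p was 0.1, the smallest that 3 against 3 fish can give.

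The gap behind *hoxb3a* was more methylated. Wild-type bodies had 39.6%, 37.5% and 38.3% over 237 CpGs, and mutant bodies had 20.2%, 24.2% and 23.5%. These groups did not overlap either (exact permutation p = 0.1). The same held in 17801 of the 17823 gene loci and in 389434 of the 403058 windows of 1 kb, so it is not particular to the gaps. In sperm, G2 wild-type males averaged 2.72% ± 0.14 before and 27.2% ± 0.46 behind the interval (SD, n = 3). The G4+ and G4* males averaged 3.39% and 3.41% before it (exact permutation p = 0.9), and 24.3% and 24.7% behind it (exact permutation p = 0.6).

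**Figure D3:**
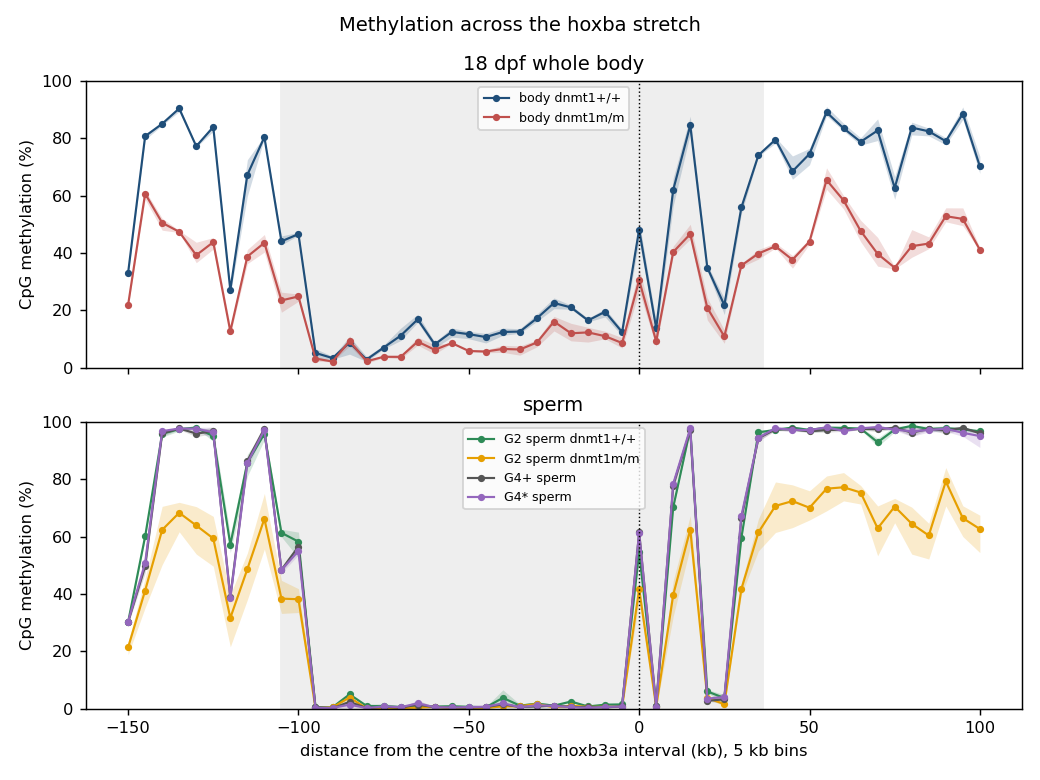
Mean methylation (%) in 5 kb bins against the distance in kb from the centre of the *hoxb3a* interval (dotted line), with bands for the lowest and highest of 3 fish and the stretch between the neighbouring rows shaded. The bin at -100 kb, inside the stretch, has 46.6% in wild-type bodies and 58.3% in G2 wild-type sperm, and the bin at -25 kb has 22.6% in wild-type bodies. The bin at 15 kb, also inside the stretch, has 84.5% in wild-type bodies and 97.6% in G2 wild-type sperm.

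The share of CpGs under 20% showed the same order. In the gap before *hoxb3a* it was 73.1% ± 0.52 in wild-type and 86.0% ± 2.60 in mutant bodies (SD, n = 3), and the groups did not overlap (exact permutation p = 0.1). Over all gene loci it was 4.37% and 9.77%. At the *hoxb3a* interval itself no CpG measured in each of the 6 fish was under 20% in any fish of any group.

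In windows of 1 kb, 97 windows centred in the stretch were tested in the body, and 8 were called lower in mutants against 81.7% of all 403058 windows. Only 35 of the 97 had a wild-type level of at least 20%, so the others could not fall by 20 points. The 8 called windows had wild-type levels of 34.5% to 90.4% and fell by 21.2 to 41.2 points. Without the size limit 55 of the 97 passed the false discovery rate in limma, against 97.1% of all windows. These shares are not matched for level. The median level in wild-type bodies was 13.5% in the 97 windows and 87.8% over all windows. None of the 120 windows tested in G4 sperm was called in limma, against 0.0223% of the windows of the genome. At an unadjusted p under 0.05 there were 7, against 5.59% of all windows. Of the 120, only 15 had a G4+ level of at least 20%, so the others could not be called lower. The window that covers most of the interval had 98.4%, 98.4% and 97.6% in G4+ males and 96.0%, 98.3% and 99.2% in G4* males.

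Runs of at least 10 consecutive CpGs with a mean under 20% in G2 wild-type sperm were then collected over the genome. Only CpGs with a value in every G2 wild-type male were counted, and unmeasured CpGs between them were passed over. There were 16066, with a median of 20 CpGs and 1058 bases. The run on chromosome 3 from 23533492 to 23570533, in the gap before *hoxb3a*, held 468 CpGs, the most of any run, and with 37.0 kb was the second longest. These ranks depend on which CpGs were measured and on the limit of 20%. With a mean under 10% the run of most CpGs in the stretch held 204 CpGs and ranked 17, and the longest was 15.7 kb and ranked 19. At 20% the stretch held 11 runs in all, which covered 111 kb.

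The other Hox clusters were looked up by their RefSeq neighbours, since no row named their genes. An interval between neighbouring genes of 20 to 500 kb, a limit set after seeing the data, was found for hoxbb (*ttll6* to *skap1*), hoxab (*tax1bp1b* to *skap2*), hoxca (*calcoco1a* to *cbx5*) and hoxda (*nfe2l2a* to *lnpa*). The interval from *eve1* to *cbx1a* around hoxba, of 416378 bases with 63 rows, also met this limit but was not used, since hoxba was represented by the stretch between the rows beside *hoxb3a*. That stretch is thus poor in rows by its construction. The other intervals run between rows that name their neighbouring genes. Rows of those genes are thus left out, which lowers their counts too. The hoxaa and hoxcb clusters had no such interval and were not analysed. The hoxab interval (52.9 kb) had no row of the G2 table, and the hoxbb interval (51.1 kb) had 3, which is 5.87 per 100 kb. The longer hoxca (288 kb) and hoxda (361 kb) intervals had 24 and 42, or 8.33 and 11.6 per 100 kb, against 16.7 over the 25 chromosomes. Since rows set the limits of every interval, and the hoxab interval is a single gap between rows, these rates are a description. At the limit of 20% the best run of each interval was among the first 9 runs of the genome by CpGs. It held 386 CpGs over 28.2 kb in hoxab, 339 over 26.8 kb in hoxbb, 287 over 23.6 kb in hoxca and 278 over 25.9 kb in hoxda. At a limit of 10% the best runs by CpGs ranked 1 in hoxab, 12 in hoxda, 14 in hoxca and 26 in hoxbb. By length the longest runs then ranked 3 in hoxca, 8 in hoxda, 11 in hoxab and 30 in hoxbb. Which of the runs lie at a Hox gene was not determined, and the hoxda interval also holds rows naming *hnrnpa3* and 5S_rRNA.

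**Figure D4:**
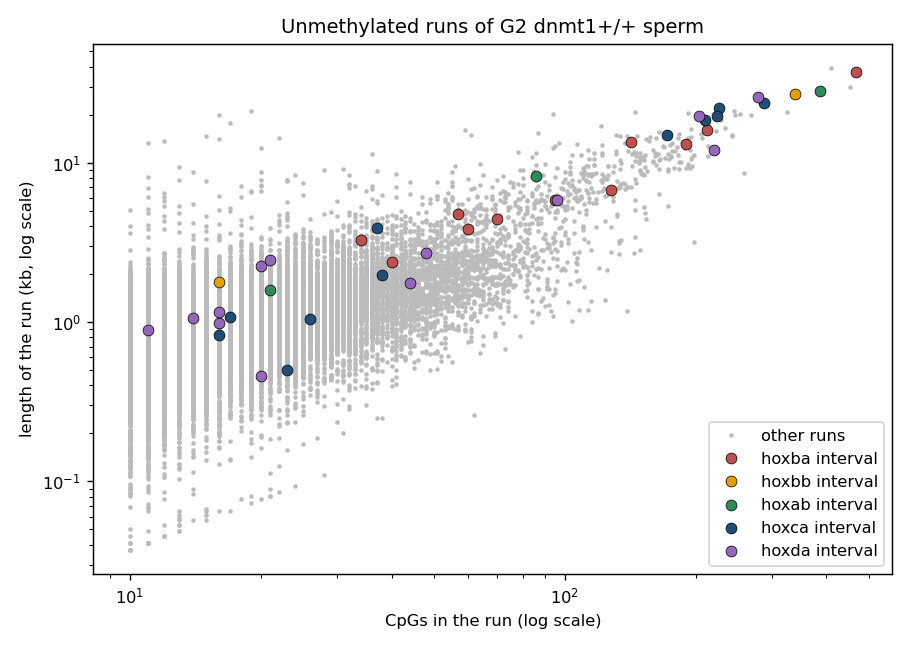
Length in kb against the number of CpGs for each of the 16066 unmethylated runs of G2 wild-type sperm, both axes logarithmic, with runs of the 5 Hox intervals in colour. At the limit of 20% used here the run with the most CpGs (468) is in the hoxba stretch. Each other interval has a run among the first 9 by CpGs. At 10% only the best run of hoxab (rank 1) is among the first 9 by CpGs. By length the longest runs of hoxca and hoxda then rank 3 and 8.

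These runs were chosen for low levels in sperm, so their difference between sperm and body is a description. Over the runs of the 5 intervals G2 wild-type sperm averaged 0.86% and wild-type bodies 11.3%, while over all runs they averaged 0.83% and 6.20%. The bodies took no part in the choice. Wild-type bodies had 11.5%, 11.4% and 10.9% over 3062 CpGs of these runs, and mutant bodies had 6.48%, 7.77% and 7.40%. Every mutant body was below every wild-type body (exact permutation p = 0.1).

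The level in wild-type bodies differed among the clusters. It was 13.9% ± 0.50 in hoxba runs, 10.6% ± 0.21 in hoxbb, 8.16% ± 0.74 in hoxab, 10.6% ± 0.48 in hoxca and 9.24% ± 0.64 in hoxda (SD, n = 3). Mutant bodies kept 62.3%, 62.9%, 67.8%, 65.5% and 65.8% of these levels, and the groups did not overlap in any of the 5. Over all listed CpGs mutant bodies kept 65.8%. The groups did not overlap in 17801 of the 17823 gene loci, whose median wild-type level was far higher, at 86.4%. Among single runs of the genome they did not overlap in 35.8%, but the values above pool the runs of an interval. Within hoxba the run nearest *eve1* had 3.1% in wild-type bodies, and the run from 23636390, behind *hoxb3a*, had 32.7%.

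Of the 32 runs of the 5 intervals with enough CpGs in the body, 7 were called lower in limma at a false discovery rate under 5%, against 15.7% of all 5766 runs. Leaving out any 1 fish left 0 or 1 of these runs called. The 1 called in the hoxda interval, from 1711414, lies apart from its largest run, which starts at 1941961. The largest fall was in the run from 23636390, with 31.1% to 33.9% in wild-type and 15.1% to 22.6% in mutant bodies (limma adjusted p = 0.037). In 24 of the 32 runs every mutant body was below every wild-type body, while groups did not overlap in 35.8% of all runs. Neither share of all runs is matched for level. The median level in wild-type bodies was 1.67% over all runs and 11.9% over the 32 runs of the 5 intervals. In G4 sperm 0 of 38 such runs were called in limma, against 0.0997% of all runs. At an unadjusted p under 0.05 there were 0, against 772 of all 13033.

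Over whole intervals, CpGs outside the runs included, the G4 groups did not overlap in 1 of the 5. They also did not overlap in 2220 of the 19506 gene loci, and 5 intervals are too few to tell from that share. In hoxca the G4+ males had 46.2%, 46.1% and 46.5% over 2529 CpGs, and the G4* males had 45.9%, 45.4% and 45.5%, all lower. The difference was -0.70 points, and the exact permutation p of 0.1 is the smallest possible. The groups overlapped in the hoxba stretch, hoxbb, hoxab and hoxda, with exact permutation p from 0.3 to 0.7.

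**Figure D5:**
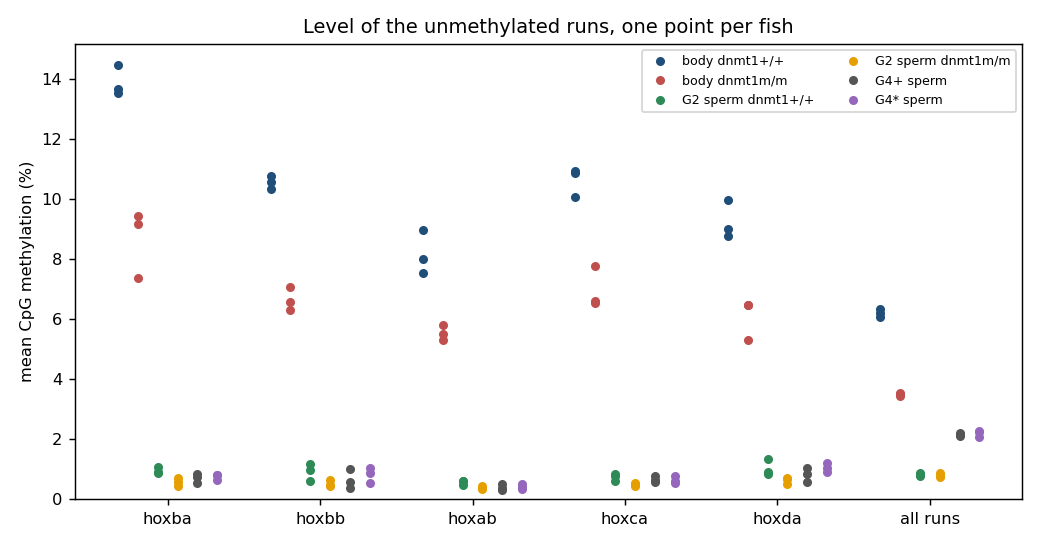
Mean methylation (%) of the unmethylated runs of each Hox interval and of all runs, with 1 point per fish in the 6 groups. In each of the 5 intervals the 3 mutant bodies lie below the 3 wild-type bodies, and all sperm groups lie below both.

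The table of mean levels deposited for whole bodies lists *hoxb3a* with limits that were not given in the sources used here. The authors' value was 20.4%, 26.9% and 25.3% in wild-type bodies and 8.81%, 13.3% and 15.8% in mutant bodies. All mutants were lower, by 11.6 points on average (exact permutation p = 0.1, n = 3). They kept 52.1% of the wild-type level. Over the other loci among the 12 deposited, mutants kept a median of 40.3%, with a median wild-type level of 30.9%. These levels are far below the 83.9% of the interval in the same wild-type bodies. Which CpGs the deposited value covers was not determined here.

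Genes that work with Hox genes were read from a list of 47, and 32 had enough CpGs in the body. They include the Hox cofactors of the Pbx and Meis families, retinoic acid receptors and enzymes, Cdx factors and Polycomb and Trithorax proteins. In mutant bodies 29 of the 32 were called lower and 0 higher, against 95.2% of all loci called lower. The median difference was -25.94 points, and -28.40 over all loci. The largest fall was at *cbx8b*, a Polycomb chromobox gene, from 77.8% to 38.6%, over only 11 CpGs. Those not called included *cbx2*, a Polycomb chromobox gene that passed the false discovery rate with a difference under 20 points (94.0% to 79.3%), and *gsx2*, a ParaHox gene (45.7% to 27.0%). *gsx2* had 5.57%, 27.7% and 47.9% in the mutant bodies, so the groups overlapped. Both *cbx2* and *gsx2* rest on 10 CpGs, the minimum for the test.

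In G4 sperm 0 of 32 of these loci were called in limma, against 0.0308% of all loci. At an unadjusted p under 0.05 there was 1, against 6.56% of all loci. That was *cdx1b*, a caudal-related activator of Hox genes, with 95.1%, 93.4% and 89.8% in G4+ and 90.2%, 86.3% and 88.9% in G4* males (limma adjusted p = 0.760). Between wild-type body and sperm 1 of 31 was called, *meis1b*, a Hox cofactor gene, higher in sperm (76.2% against 97.7%), as were 1.35% of all loci.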

How the data were processed

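The deposited single-CpG tables hold fractions, which the authors made by aligning bisulfite reads to danRer10, merging both libraries of a fish and blanking positions with low coverage or a variant. The deposited mean-level table also holds fractions. BWA 0.7.12 is named in the submitters' notes. Only coordinates, gene names and distances of the authors' region tables were used, and their 26 columns of comparison statistics were not. The other deposited tables were not used. Levels were averaged per fish over CpGs measured in each of the 6 fish compared. Loci (smallest start to largest stop of rows within 5 kb of a gene, at least 10 CpGs), 1 kb windows (at least 5 CpGs) and runs were tested with limma 3.58.1 in R 4.3.3 on logits (offset 0.01), with Benjamini-Hochberg adjustment over all features. Calls needed a false discovery rate under 5% and, except for runs, 20 points. Single values were compared by two-sided exact permutation over fish. On simulated data with 200 changes of 30 points, 195 body loci and 59 G4 windows were recovered, but 0 body windows. The simulated G4 windows also gave 2 false calls. In the data 81.7% of body windows were called, so the simulation does not give the recovery there. Members, gene lists and tests were chosen with earlier results of these data known. Named were *hoxb3a*, the cluster runs of most CpGs, and list members called or not called as counted. The values of 1 list member are not reported here. The labels do not state that fish of a group came from separate clutches, so p-values measure the spread between these fish.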

Additional observations from a re-analysis of the deposited data

How the results depend on the processing

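In bodies same-numbered fish did not deviate together (correlations of -0.013 to 0.011). In G4 sperm the correlations of same-numbered males were weak but all positive (0.012 to 0.140). Those of differently numbered G4 males ran from -0.099 to 0.048. The numbers were not taken as pairs in the main fits. With the replicate block 0 G4 loci and 0 G4 windows were called over the genome, against 6 and 170 without it, and *hoxb3a* was called in neither fit. The body difference of *hoxb3a*, untested at 10 CpGs, was called at a minimum of 5 CpGs (-22.29 points) and when 2 fish of each group sufficed (-26.80). At 5 CpGs it was called without wild-type body 1 (-20.56), 2 (-24.88) or 3 (-21.43) and without mutant body 2 (-26.25) or 3 (-21.70), and not without mutant body 1 (-18.92). The G4 difference at *hoxb3a* turned to -0.26 points when 2 fish of each group sufficed and ranged from -0.13 to 0.32 with single males left out. In the G4 window at *hoxb3a* it was -0.31, and -1.01 to 0.61 with males left out.

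Over the genome, calls numbered 21 (G4 loci) and 17691 (tissue loci, 257 before) with no minimum difference, and 157 (tissue loci) with at least 20 CpGs. With at least 10 CpGs, 83308 body windows were called among fewer tested, and 0 of the 51 windows left in the stretch, against 8 of 97. With an offset of 0.001, 0 G4 windows were called, as with any male left out. With males left out, G4 loci called ranged from 0 to 5 and G4 runs from 6 to 18 (13 with all). With bodies left out, body runs called ranged from 175 to 503 (931 with all) and those of the 5 Hox intervals from 0 to 1 (7 with all). The G4 runs of these intervals called ranged from 0 to 1. Counting CpGs under 10%, the share rose in mutant bodies by 14.8 points in hoxbb, 9.37 in hoxab, 8.98 in hoxca and 5.71 in hoxda, against 11.4, 4.96, 11.1 and 7.18 under 20%. Runs numbered 8077 over the genome and 1 in hoxbb at 20 or more CpGs, and 20 in hoxba and 18 in hoxca at a mean under 10%, where the best run by CpGs fell from rank 1 to 17 in hoxba and from 5 to 26 in hoxbb. The causes were not tested. Another coverage minimum was not run, since the tables hold no coverage. Leaving out fish for the deposited *hoxb3a* level gave -13.5 to -9.69 points. The values at 5 CpGs, in the stretch, in the other clusters and for runs in limma were chosen after seeing the data.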

Other observations

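Some of the gaps and runs that rank beside those of the Hox clusters are given here, chosen after their values were seen. The run second by CpGs, with 453 over 29.9 kb, lies between rows naming si:dkeyp-10a3.2 and si:dkey-172f14.2. The longest run, 39.2 kb with 410 CpGs, follows a row naming *slc25a21*. A row naming *pax9*, a paired-box transcription factor gene, ends within this run, and another row naming *pax9* lies behind it. A run of 325 CpGs over 20.8 kb lies between *zic1* and *zic4*, zinc finger genes of neural development, and one of 280 CpGs over 24.2 kb follows a row naming *nr2f2*, an orphan nuclear receptor gene. A run of 268 CpGs over 19.8 kb lies between *gata3*, a T cell and ear transcription factor gene, and *taf3*. Among gaps, the fourth by CpGs under 20% lies between rows naming *evx1* on chromosome 19 and is 86778 bases long, with 648 such CpGs. RefSeq places *evx1* beside the hoxaa cluster.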
